A study of Homo sapiens with 10 samples.

Results

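The circadian clock genes BMAL1, CLOCK, PER1, PER2, CRY1, CRY2, NR1D1, NR1D2, BHLHE40 and DBP were examined on arrays of cyclophosphamide-resistant and cyclophosphamide-sensitive leukaemia cells. Every probe set that the platform annotation assigns to 1 of these 10 genes was taken, which gave 13 of the 12558 human probe sets, for 10 of the 9141 gene symbols on the array. A probe set is a group of short oligonucleotides whose brightness is combined into 1 signal for a transcript. Of the 13, 10 carry a single gene symbol. The others are 2 probe sets annotated to both NR1D1 and THRA, which overlap in the genome, and 1 annotated to both PER1 and MIR6883, a microRNA gene that lies inside PER1. The genes were chosen with the resistant against sensitive contrast already known, so their differences between the lines are given as a description without p-values.

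The study compared a subline resistant to cyclophosphamide (5 arrays) with the chronic myeloid leukaemia line it came from, which is sensitive to the drug (5 arrays). Cyclophosphamide is an alkylating prodrug. Cells of both groups were grown in tissue culture medium, and no label records a drug added before RNA extraction. The name of the line, the way resistance was raised, whether the subline is a single clone and the hour of harvest could not be read from the labels, and the labels do not state that replicates were separate cultures, so the spread between arrays may be technical.

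The circadian clock is a feedback loop of transcription that most nucleated cells carry. BMAL1 and CLOCK form a dimer that binds E-box elements and activates the PER and CRY genes, whose proteins return to the nucleus and block the dimer. In a second loop the dimer activates NR1D1 and NR1D2, which encode the nuclear receptors REV-ERB alpha and beta, and these repress BMAL1 through RORE elements that the ROR receptors use to activate it. DBP is an output factor that binds D-box elements, and BHLHE40 is a repressor that competes at E-boxes. In blood-forming tissue of mice the clock times the traffic of stem cells and leukocytes, and loss of BMAL1 transcription with promoter methylation has been described in human blood cancers. Methylation was not measured here.

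Promoter windows of the 10 genes were read from RefSeq on GRCh38.p14, 14 windows in all, each running from 250 bases before to 50 bases after an annotated start. They were searched on both strands for the E-box CACGTG, for AGGTCA, which is the core of the RORE, for the D-box as TTATGTAA or TTACGTAA, and for the cyclic AMP response element TGACGTCA. No match overlapped another in these 14 windows. The 4 windows printed here hold the RORE core at BMAL1, the member that differed most between the lines, and the E-boxes of 3 member genes of the loop. Capitals mark every match to these exact letters. An element spelled otherwise was not searched for and stands in lower case, so a window without a match may still hold a variant.
BMAL1, chr11:13277540-13277839, + strand: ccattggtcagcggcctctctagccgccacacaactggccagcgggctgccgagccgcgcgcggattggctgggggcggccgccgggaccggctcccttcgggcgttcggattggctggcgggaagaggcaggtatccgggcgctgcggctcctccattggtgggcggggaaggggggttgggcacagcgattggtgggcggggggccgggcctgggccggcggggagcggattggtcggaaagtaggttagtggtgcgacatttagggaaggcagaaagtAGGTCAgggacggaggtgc
PER1, chr17:8152355-8152654, - strand: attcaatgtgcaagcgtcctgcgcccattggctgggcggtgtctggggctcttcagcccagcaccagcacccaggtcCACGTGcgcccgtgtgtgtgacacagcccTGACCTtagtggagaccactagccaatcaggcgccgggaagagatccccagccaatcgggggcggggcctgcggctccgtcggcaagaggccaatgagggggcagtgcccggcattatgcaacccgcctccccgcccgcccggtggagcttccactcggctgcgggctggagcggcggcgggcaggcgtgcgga
NR1D2, chr3:23945871-23946170, + strand: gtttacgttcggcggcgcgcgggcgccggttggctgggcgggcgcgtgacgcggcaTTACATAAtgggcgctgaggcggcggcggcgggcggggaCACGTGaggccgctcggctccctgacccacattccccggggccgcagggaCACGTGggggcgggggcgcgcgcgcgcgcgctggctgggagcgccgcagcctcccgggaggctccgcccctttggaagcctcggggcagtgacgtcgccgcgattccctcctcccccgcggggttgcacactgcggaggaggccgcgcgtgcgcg
BHLHE40, chr3:4979187-4979486, + strand: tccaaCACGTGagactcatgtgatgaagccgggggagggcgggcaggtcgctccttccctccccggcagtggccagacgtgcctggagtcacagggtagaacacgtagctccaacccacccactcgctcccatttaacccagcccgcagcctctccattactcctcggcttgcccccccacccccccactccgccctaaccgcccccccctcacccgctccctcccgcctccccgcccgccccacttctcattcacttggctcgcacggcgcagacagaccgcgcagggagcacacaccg
The AGGTCA of the BMAL1 window begins at position 32, counted with the first transcribed base as 1, and the other BMAL1 window held no match. The PER1 window had 1 E-box at -173 and 1 RORE core, the second start of NR1D2 had 2 E-boxes at -155 and -105 and 1 D-box, and BHLHE40 had 1 E-box at -245. E-boxes were found in 3 of the 14 windows, RORE cores in 4, D-boxes in 2 and the cyclic AMP element in 0. Of all 35114 promoter windows of this length, 7.26% held CACGTG, 13.8% AGGTCA, 1.01% a D-box and 1.85% TGACGTCA. These matches describe the letters in the windows and were not related to the signals by any test.

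The arrays of both groups were of like quality, with 54.9% ± 4.35 of probe sets above the limit of the negative controls on resistant and 55.1% ± 2.60 on sensitive arrays (SD, n = 5 each), and an exact permutation test, two-sided, gave p = 0.905. That limit is the 95th percentile of 32 control probe sets without a human target and lay between 319.7 and 739.8 signal units. Of 7 measured myeloid identity genes, the haematopoietic marker PTPRC, the leukaemia gene MYB, BCR and ABL1 were above the limit on all 10 arrays in 1 or more probe sets, whereas KIT was above it on none. ANPEP, a surface peptidase gene of myeloid cells, was above it on 1 resistant and 5 sensitive arrays and was called lower (log2 difference -1.61, limma adjusted p = 0.0211). SPI1, a myeloid transcription factor gene, was above it on 0 resistant and 5 sensitive arrays without being called (-1.07, adjusted p = 0.0529), at least 1.29-fold higher in sensitive cells. ABL1 was called higher in 3 of its 6 probe sets. Of 13 measured marker genes of lymphoid, stromal, endothelial, epithelial and liver cells, 0 were called, beside 7.41% of all probe sets. Of their 23 probe sets 0 were above the limit on all arrays, beside 4971 of all 12558, and 17 were above it on none. The lymphoid marker CD3E was above it on 3 arrays of each group, and 1 probe set of CD79A on 1 resistant and 3 sensitive arrays. Sensitive replicates 4 and 5 stood apart in EPX (40734 and 38859, against 3585 to 4885 on the other sensitive arrays) and in GATA1 (3800 and 3650, against 430.6 to 968). Counts without these 2 arrays are therefore given as well for the clock lists and for all probe sets. The counts and summed signals of lineage markers below include them.

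BMAL1 had a clear signal in resistant cells and none above the control limit in sensitive cells, whereas the arrays of the lines overlapped in each of the other 12 probe sets of clock genes. Across all probe sets, 7.41% were called by limma (Benjamini-Hochberg adjusted p below 0.05), with 4.42% above and 2.99% below their sensitive level (555 and 376 probe sets, or 438 and 423 with arrays scaled to a common median), and of the 13 clock probe sets 1 was called, that of BMAL1. The contrast chose the genes, so nothing is read from that count, which was also 1 without sensitive replicates 4 and 5. The groups of arrays did not overlap in 8.5% of all probe sets and in 1 of the 13. The median log2 difference of the 13 was 0.13, and that of the 12 without BMAL1 was 0.12 with a range of -0.67 to 0.75, beside a median of 0.03 over all probe sets.

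**Figure D1:**
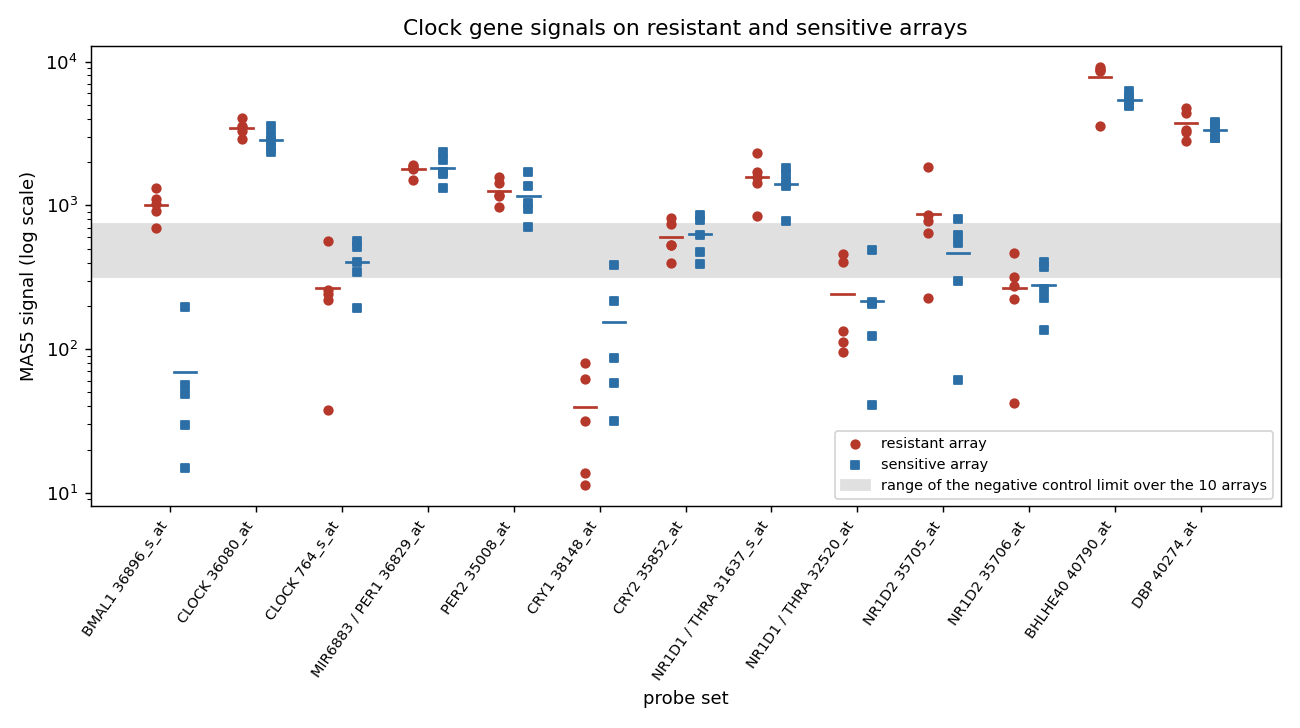
MAS5 signal of each array on a log axis for the 13 clock gene probe sets, resistant arrays as circles to the left and sensitive arrays as squares to the right; horizontal bars are group means and the grey band is the range of the control limit. BMAL1 is the 1 probe set with no overlap between the groups, at 700.7 to 1313.9 on resistant and 14.8 to 197.5 on sensitive arrays.

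BMAL1 encodes the partner without which CLOCK cannot drive the loop. Its 1 probe set gave signals of 701, 916, 1314, 1103 and 1018 on the resistant arrays, against 56.0, 29.8, 14.8, 197.5 and 48.5 on the sensitive arrays. All 5 resistant arrays were above the limit and 0 of the 5 sensitive ones, a pattern shared by 0.756% of all probe sets. The mean was 1010 ± 227 in resistant and 69.3 ± 73.4 in sensitive cells (SD, n = 5 each). Since the sensitive level is only bounded by the limit, BMAL1 was at least 2.04-fold higher in resistant cells. In bulk RNA, more cells with the transcript and more transcript per cell cannot be told apart. On the scale of log2(signal + 114.8), where 114.8 is an added constant that damps dim values, the difference was 2.66 with a standard error of 0.26, the 100th highest of 12558. It was 3.58 with a smaller constant, the 5th percentile of all signals, and 1.59 with a larger one, the 40th percentile.

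CLOCK, the DNA-binding partner of BMAL1, was well measured by 1 of its 2 probe sets. That probe set gave 3294, 4052, 3552, 2885 and 3509 on resistant arrays, against 3571, 2784, 2351, 2522 and 3096 on sensitive arrays. The groups overlapped, and the log2 difference was 0.27 (95% interval -0.12 to 0.66). In the other CLOCK probe set, 1 array of each group was above the limit and the difference had the opposite sign (-0.55, interval -1.33 to 0.23).

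The PER genes encode the rhythmic repressors of the loop. The probe set shared by PER1 and MIR6883 gave 1823, 1504, 1867, 1894 and 1793 on resistant arrays, against 2056, 1318, 2361, 1713 and 1643 on sensitive arrays. The resistant values lay inside the range of the sensitive ones, with a log2 difference of -0.01 (95% interval -0.42 to 0.40). PER2 gave 1176, 975, 1577, 1166 and 1433 on resistant arrays, against 947, 708, 1373, 1705 and 1030 on sensitive arrays. Its groups overlapped widely and the log2 difference was 0.16 (interval -0.35 to 0.67).

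The cryptochromes CRY1 and CRY2 complete the repressor complex with the PER proteins and were dim. CRY1 exceeded the limit on 0 of the 10 arrays, with signals of 11.3 to 79.5 (median 31.8) in resistant and 31.7 to 382.4 (median 86.4) in sensitive cells, so no fold is given. CRY2 gave 399.5, 527.1, 528.2, 737.0 and 815.3 on resistant arrays, against 786.1, 393.8, 475.6, 857.2 and 621.4 on sensitive arrays. It was above the limit on 3 arrays of each group and its log2 difference was -0.04 (95% interval -0.56 to 0.48).

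For NR1D1, which represses BMAL1 transcription, both probe sets are shared with THRA, the thyroid hormone receptor gene transcribed from the opposite strand. The brighter one gave 1694, 1586, 2311, 1422 and 848 on resistant arrays, against 1646, 783, 1455, 1354 and 1817 on sensitive arrays. The groups overlapped, with a log2 difference of 0.13 (95% interval -0.48 to 0.73). The dimmer one was above the limit on 1 resistant and 0 sensitive arrays (0.12, interval -0.74 to 0.97). The 3 probe sets annotated to THRA alone had log2 differences of -0.15, -0.58 and -0.71, and 0 of them were called (limma adjusted p = 0.829, 0.273 and 0.173). Signal of the 2 genes cannot be told apart in the shared probe sets.

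NR1D2 encodes the paralogue of the NR1D1 product and binds the same element. Its brighter probe set gave 226.0, 780.9, 637.5, 856.0 and 1858.5 on resistant arrays, against 621.5, 296.3, 798.6, 61.0 and 548.1 on sensitive arrays. The highest value was on a resistant array and the lowest on a sensitive one, but the groups overlapped, and the log2 difference of 0.75 had a 95% interval of -0.34 to 1.85. The second NR1D2 probe set exceeded the limit on 0 arrays.

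BHLHE40, the E-box repressor also known as DEC1, had 4 resistant arrays above all sensitive arrays and 1 below them. Its signals were 8689, 8629, 8824, 3575 and 9187 on resistant arrays, against 6207, 5646, 5017, 4887 and 5422 on sensitive arrays. The low value was resistant replicate 4. With it the log2 difference was 0.44 (95% interval -0.13 to 1.00) and did not pass the threshold. Without that array it was 0.69 and passed, so that 2 clock probe sets did, which is given as a description only since the contrast chose the genes.

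DBP, a direct and strongly rhythmic target of the BMAL1 and CLOCK dimer in mouse tissues, gave 3364, 4743, 4396, 3257 and 2806 on resistant arrays, against 3332, 3708, 3784, 2943 and 2945 on sensitive arrays. The sensitive values lay inside the range of the resistant ones, and the log2 difference was 0.13 (95% interval -0.29 to 0.55). DBP, PER2 and the shared PER1 probe set were above the limit on all 10 arrays, so they were measured in both lines. Their intervals reach no further than 0.67 on the log2 scale upward and -0.42 downward. BHLHE40 and the brighter probe set shared by NR1D1 and THRA were also above the limit on all 10 arrays. The intervals of those reach up to 1.00 and 0.73. That of the brighter NR1D2 probe set, above the limit on 4 resistant and 3 sensitive arrays, reaches up to 1.85. With arrays scaled to a common median, which lowers the median of all differences by 0.1, the differences were 0.00 for DBP, 0.14 for CLOCK and -0.13 for the shared PER1 probe set. In that setting they were 0.04 for PER2, 0.31 for BHLHE40, 0.63 for the brighter NR1D2 probe set and 0.01 for the brighter one of NR1D1 and THRA.

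**Figure D2:**
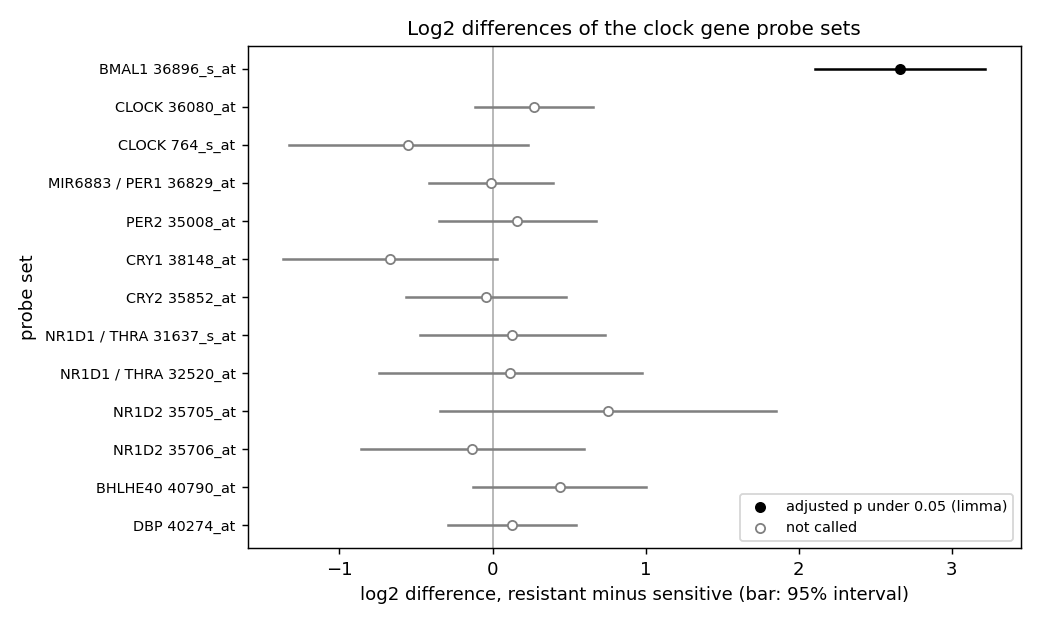
Log2 difference, resistant minus sensitive, of each clock gene probe set with its 95% interval; filled points passed an adjusted p under 0.05 in limma and open points did not. BMAL1 lies at 2.66, and the intervals of the other 12 probe sets include 0.

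Lineage markers also differed between the lines. Of 17 measured granulocytic marker genes 11 were lower in resistant cells, in 13 of 19 probe sets beside 2.99% of all. These were ELANE, PRTN3, AZU1, CTSG, CEBPE, MS4A3, PRG2, EPX, CLC, RNASE2 and CSF3R. The summed signal of the list was 3368 to 7320 on resistant arrays, against 219411 to 508807 on sensitive arrays. PRG2, the brightest gene on sensitive arrays, made up a large part of that sum, with a mean of 146602 in sensitive and 390.8 in resistant cells. FCGR3B, LCN2 and DEFA4 of that list were above the limit on no array. MPO, CAMP and LTF were not called either, and their log2 differences were positive (0.25, 0.59 and 0.65). They were above the limit on 2, 3 and 1 resistant arrays and on 1, 2 and 0 sensitive arrays. Of 12 measured erythroid genes 3 were higher, KLF1, TAL1 and BLVRB, in 4 of 17 probe sets beside 4.42% of all, with a summed signal of 65086 to 92849 on resistant and 36691 to 54513 on sensitive arrays. The other measured erythroid genes were not called, with log2 differences from -0.38 (HBZ) to 1.49 (GATA1, limma adjusted p = 0.140). Among those was TFRC, the brightest of the list and a large part of its sum, with means of 35547 in resistant and 29978 in sensitive cells. The part of these lineage differences in the BMAL1 signal was not tested.

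Among 22 further genes of the clock and of the kinases and ligases that act on its proteins, 12 were measured by 21 probe sets of their own. This list was also chosen with earlier results of these data known, so its calls and p-values are a description and no independent test. CSNK1A1, a casein kinase 1 gene, rose in resistant cells, and no other gene of the list was called. Its brighter probe set gave 7648, 8277, 10457, 9309 and 8094 on resistant arrays, against 4776, 4045, 4308, 4024 and 4579 on sensitive arrays. The log2 difference was 0.99 with a standard error of 0.16 (limma adjusted p = 0.00217), and the groups did not overlap. The second CSNK1A1 probe set exceeded the limit on 0 arrays. In counts, 1 of the 21 probe sets was called higher and 0 lower, beside 7.41% of all probe sets, and the median log2 difference was 0.03. The groups did not overlap in 3 of the 21, beside 8.5% of all.

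The ubiquitin ligase genes FBXW11 and BTRC, whose products mark PER proteins for destruction, came close to the threshold. FBXW11 gave 3542, 4101, 2583, 2769 and 4127 on resistant arrays, against 2508, 2181, 1684, 2039 and 2128 on sensitive arrays. The groups did not overlap, with a log2 difference of 0.66 (standard error 0.19, limma adjusted p = 0.0687). In the BTRC probe set with the largest difference the groups did not overlap either (1.17, limma adjusted p = 0.0531), although it was above the limit on 3 resistant and 0 sensitive arrays. The brightest BTRC probe set had a difference of 0.60 and the remaining one of 0.30 (limma adjusted p = 0.348 and 0.716). FBXW11 was called under 4 of 18 alternative settings, with adjusted p-values of 0.026 to 0.264 over all 18, and the BTRC probe set under 4 as well, with 0.00965 to 0.135.

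The other kinases and regulators of this list were not called. CSNK1D, a casein kinase that phosphorylates PER proteins, averaged 4700 ± 839 in resistant and 4628 ± 1766 in sensitive cells in 1 bright probe set (log2 difference 0.07, limma adjusted p = 0.929), and in another 4852 ± 498 in resistant and 6253 ± 1316 in sensitive cells (-0.34, adjusted p = 0.403). NFIL3, a repressor at D-boxes, averaged 2594 ± 332 in resistant and 3364 ± 1040 in sensitive cells (-0.32, adjusted p = 0.543). TIMELESS, a replication fork protein with a debated clock role, averaged 1446 ± 354 in resistant and 1911 ± 386 in sensitive cells (-0.39, adjusted p = 0.378). GSK3B, a kinase gene whose product phosphorylates several clock proteins, averaged 1550 ± 391 in resistant and 1554 ± 434 in sensitive cells in its brighter probe set (0.00, adjusted p = 0.996). RORA and RORB, receptors that activate BMAL1, were looked up for that role after the data had been seen, and both stayed below the limit on all 10 arrays. NPAS2, which can stand in for CLOCK, was above it on 1 sensitive array in 1 of its 2 probe sets.

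The list of clock output genes and of genes in pathways that induce PER transcription held 19 genes, of which 16 were measured by 26 probe sets. It too was chosen with earlier results of these data known, so its calls and p-values are a description. FOS and KLF10 were called lower in resistant cells, each in 1 of its probe sets. KLF10, a zinc finger factor with a rhythmic transcript in mouse liver, gave 1736, 1877, 1324, 1942 and 2096 on resistant arrays, against 2959, 3123, 2749, 3710 and 2384 on sensitive arrays. The groups did not overlap and the log2 difference was -0.70 (limma adjusted p = 0.0411). The call was lost under 12 of 18 alternatives, at adjusted p-values of up to 0.0995, among them the omission of any 1 of 9 arrays. Its other probe set had -0.28 (adjusted p = 0.576).

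FOS, an immediate early gene of the pathways that induce PER1, was dim. In the called probe set the signals were 38.2, 188.1, 84.6, 133.2 and 160.5 on resistant arrays, none above the limit, against 339.7, 528.9, 350.4, 588.6 and 357.1 on sensitive arrays, of which 2 were above it. The log2 difference was -1.23 (limma adjusted p = 0.00547). No fold is given for it, since the sensitive mean lay below the mean limit of the resistant arrays. The brightest FOS probe set had -0.37 and the remaining one 0.31 (adjusted p = 0.330 and 0.654).

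The output genes with the brightest signals were not called. WEE1, a kinase gene that restrains entry into mitosis and follows the clock in mouse liver, averaged 10213 ± 2860 in resistant and 8645 ± 1333 in sensitive cells (log2 difference 0.21, limma adjusted p = 0.695). PNP, a purine salvage enzyme gene, averaged 27644 ± 1892 in resistant and 24672 ± 6861 in sensitive cells (0.21, adjusted p = 0.696). The brightest probe set of VEGFA averaged 8487 ± 5403 in resistant and 12202 ± 2288 in sensitive cells (-0.72, adjusted p = 0.358). Over the list 0 of 26 probe sets were called higher and 2 lower, beside 7.41% of all probe sets in either direction, with a median log2 difference of 0.08.

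**Figure D3:**
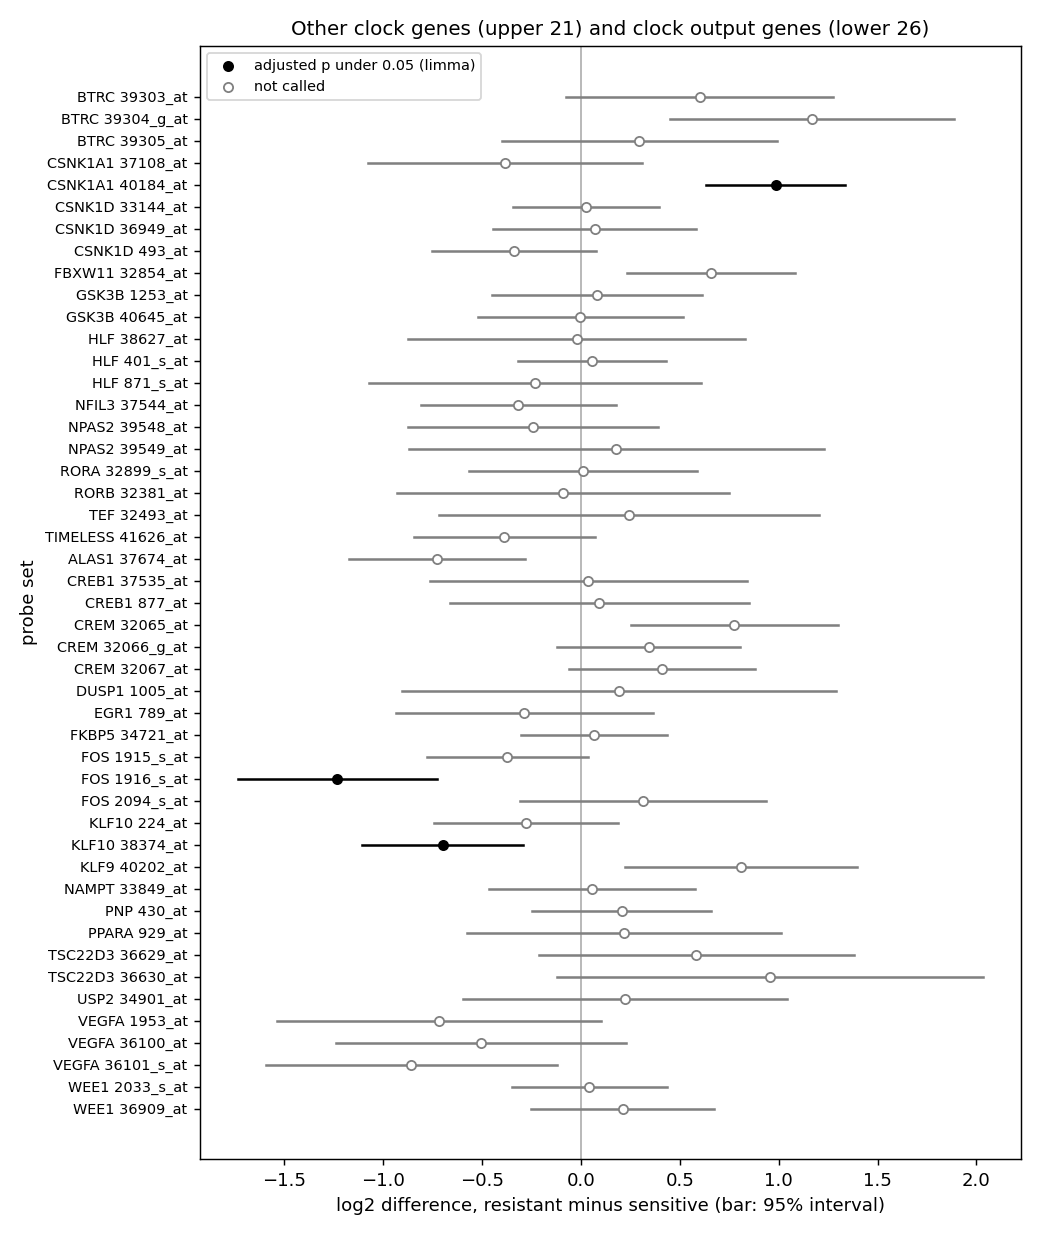
Log2 difference, resistant minus sensitive, with its 95% interval for the 21 probe sets of other clock genes (BTRC to TIMELESS) and the 26 of clock output genes (ALAS1 to WEE1); filled points were called by limma. CSNK1A1 at 0.99, FOS at -1.23 and KLF10 at -0.70 are the filled points.

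BMAL1 lies on chromosome 11, and the 5 nearest genes measured on each side were looked up by their order there, after the data had been examined. In resistant cells RRAS2, a RAS-related GTPase gene, rose, and so did PDE3B, a cyclic nucleotide phosphodiesterase gene. Over all probe sets 7.41% were called in either direction. The genes on either side of BMAL1, TEAD1 and SPON1, were not called and were above the limit on no array. RRAS2 gave 3707, 4440, 3350, 3099 and 4506 on resistant arrays, against 127.5, 71.2, 17.6, 14.7 and 153.5 on sensitive arrays. It was at least 7.79-fold higher (log2 difference 4.41, limma adjusted p = 4.68e-07), and all 3 of its probe sets were called.

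PDE3B, the outermost of these neighbours, averaged 1236 ± 366 in resistant and 527 ± 32.7 in sensitive cells (log2 difference 1.03, limma adjusted p = 0.00675), and 1 of its 2 probe sets was called. Between BMAL1 and RRAS2 lies SPON1, which was above the limit on no array. COPB1 and PSMA1, between RRAS2 and PDE3B, were bright on all arrays with log2 differences of -0.08 and -0.11 (limma adjusted p = 0.889 and 0.865). On the other side, the representative probe sets of TEAD1, PARVA, MICAL2, DKK3 and GALNT18 were not called, with differences between -0.49 and 0.25. Most of them were dim. TEAD1 and DKK3 were above the limit on no array, PARVA on 1 and MICAL2 on 2 resistant arrays, and GALNT18 on 3 arrays of each group. The second probe set of MICAL2 was called (1.18, limma adjusted p = 0.0136).

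**Figure D4:**
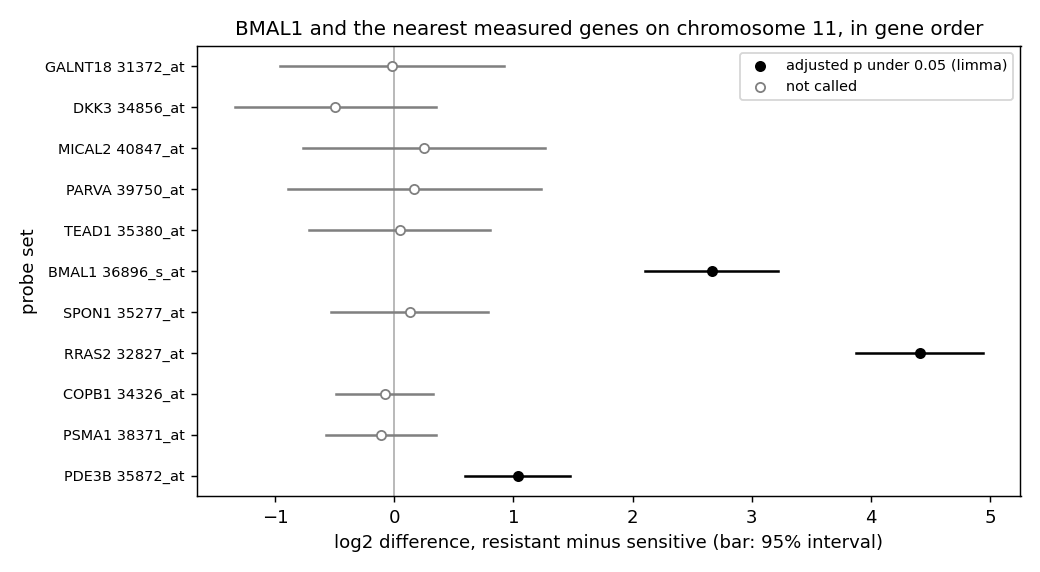
Log2 difference, resistant minus sensitive, with its 95% interval for BMAL1 and the 5 nearest measured genes on each side, in their order on chromosome 11; each gene is shown by its brightest probe set and filled points were called by limma. BMAL1 at 2.66, RRAS2 at 4.41 and PDE3B at 1.03 are separated by SPON1, COPB1 and PSMA1 near 0. Of these 3, SPON1 was above the control limit on no array.

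The genes whose profile over the 10 arrays lay nearest to that of BMAL1 were FERMT2, CLIC5, MEF2C, EPHX2 and AKAP12. Nearness was the root mean square distance of log2 values after each profile had been centred on its own mean, and it was 0.331, 0.350, 0.361, 0.370 and 0.384 in that order. All 5 were at or below the limit on every sensitive array, and all 5 were selected by likeness to BMAL1, so their difference between the groups follows from the choice and is not tested. FERMT2, an activator of integrins, gave 1267, 670.8, 1202, 1268 and 1338 on resistant arrays, against 25.3, 42.5, 31.7, 175.4 and 21.8 on sensitive arrays. MEF2C, a transcription factor of muscle and blood cells, averaged 2220 ± 678 in resistant and 188 ± 25.1 in sensitive cells. EPHX2, the soluble epoxide hydrolase gene, averaged 1531 ± 164 in resistant and 93.9 ± 124 in sensitive cells.

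Sensitive replicate 4 had the highest sensitive signal of BMAL1 (197.5), FERMT2 (175.4), EPHX2 (314.9) and AKAP12 (262.0), all of them at or below that array's limit of 527.1. CLIC5 and MEF2C had their highest sensitive signals on replicates 2 and 1, at 163.8 and 212.5. These genes were chosen for likeness to BMAL1 over all arrays, sensitive replicate 4 included. A peak shared with BMAL1 on that array is therefore favoured by the choice and is not tested. Among resistant arrays BMAL1 was highest on replicate 3 and lowest on replicate 1.

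**Figure D5:**
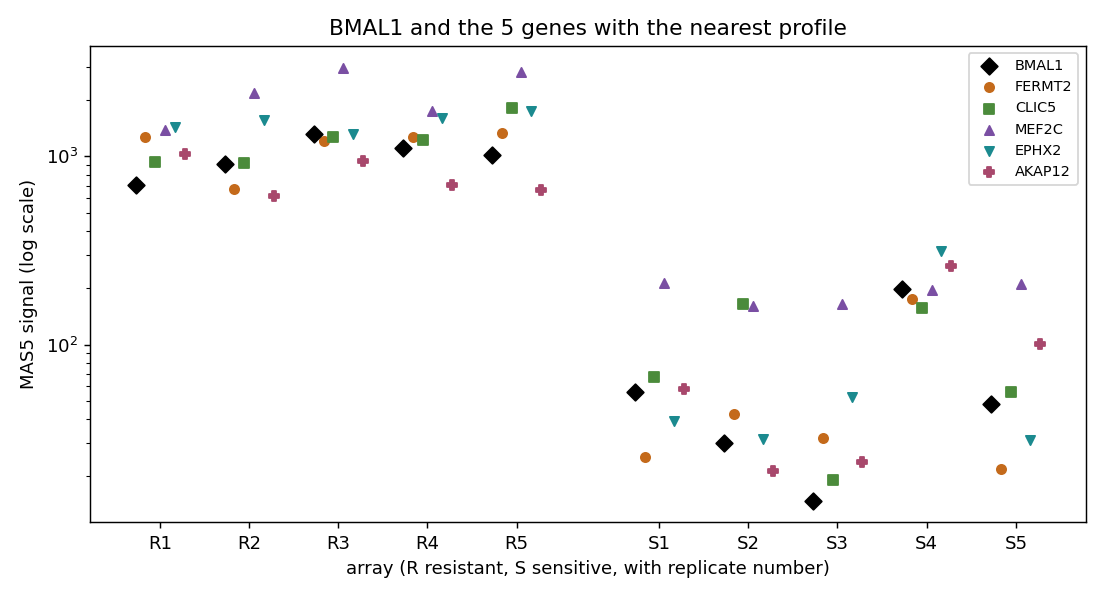
MAS5 signal on a log axis for BMAL1 and the 5 genes with the nearest profile, on resistant arrays (R, left) and sensitive arrays (S, right). The resistant values of BMAL1 lie between 700.7 and 1313.9, and its sensitive values between 14.8 and 197.5 with the highest on replicate 4.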

How the data were processed

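Biotin-labelled cRNA was made from total RNA and hybridised to 1-colour Affymetrix arrays, per the labels' protocols. The deposited values are 1 intensity per probe set and array on a linear scale, made with MAS5 per the submitters' processing notes. No label gives the version or settings of MAS5. The 2% trimmed mean was 2501.33 to 2501.51 on all 10 arrays, so the values had been brought to a common level. Groups came from the sample titles.

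The 67 control probe sets were left out of the tests. Probe sets were named from the platform annotation, updated by Entrez identifier to the RefSeq gene table of GRCh38.p14 (10943 with 1 symbol, 545 with several, 1070 with none). Arrays were scaled to the mean of their trimmed means, and log2(signal + 114.8), the constant being the 20th percentile, was fitted in limma 3.58.1 (lmFit, then eBayes; R 4.3.3) without covariates and without a filter. Benjamini-Hochberg adjustment ran over 12558 probe sets, and simulated data with known changes served as a check of the fit. For a bound, each signal of the dim group that lay under its array's control limit was replaced by that limit before the log2 means were compared. The number of arrays limits the precision. The members and lists were chosen with earlier results of these data known.

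Named were all members, every called gene of both further lists, the 6 and 3 brightest genes not called in them, and the 5 profiles nearest to BMAL1. A gene is represented by its brightest probe set (mean log2 signal). The main fit did not pair arrays by replicate number. Deviations of same-numbered arrays correlated weakly, at 0.00865 to 0.123, above 0.1 in 1 of 5 pairs. Low correlations cannot exclude that same-numbered arrays were processed together. Alternatives changed the constant, the scaling, the variance model, a filter on dim probe sets, the block and the arrays included.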

Additional observations from a re-analysis of the deposited data

Results flagged for a closer look

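Of 104 groups of 5 arrays, formed by each named probe set in each line, 9 held an array far from the other 4 by Dixon's ratio on the log2 scale, where chance gives about 1 in 20. Among the clock genes, BHLHE40 was 3574.5 on resistant replicate 4, against 8629.1 to 9186.9 on the other resistant arrays. The probe set of PER1 and MIR6883 was 1504.4 on resistant replicate 2, below the others at 1792.5 to 1893.9. GSK3B was 536.2 on resistant replicate 3 in its dimmer probe set, with the others at 1015.6 to 1246.9, and CSNK1D was 7773.7 on sensitive replicate 3, with the others at 3579.9 to 3986.4. PNP was 30943.5 on resistant replicate 1, above the others at 26102.6 to 27172.3. FERMT2 was 670.8 on resistant replicate 2 (others 1201.9 to 1337.6) and 175.4 on sensitive replicate 4 (others 21.8 to 42.5), and EPHX2 was 314.9 on sensitive replicate 4 (others 31.2 to 52.6). Both genes were chosen for likeness to BMAL1, which was also highest among sensitive arrays on replicate 4. Their high values on that array are therefore favoured by the choice. SPON1 was 298.3 on resistant replicate 4 (others 14.5 to 29.8), where it was still below the control limit.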

How the results depend on the processing

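Of 18 alternatives, the joint omission of sensitive replicates 4 and 5 was added after seeing the data. The log2 difference of BMAL1 ran from 1.59 to 3.58 over them. The contrast chose the clock members, so the count of their probe sets past the threshold is a description and no sign of stability; it was 1, and 1 to 2 with 1 array left out, BHLHE40 being the second without resistant replicate 4. For the other clock genes the count of 1 became 3 with the constant at the 40th percentile, 3 with dim probe sets left out, 2 with an intensity trend and robust prior, 2 with the replicate number as a block, and 1 to 2 with 1 array left out; the probe sets added were those of FBXW11 and BTRC, and CSNK1A1 was called in every setting. For the clock output genes the count of 2 became 1 with the constant at the 5th percentile, 3 at the 40th percentile, 3 with dim probe sets left out, 3 with quantile normalization, 4 with the trend and robust prior, 1 with the replicate block, 1 without sensitive replicates 4 and 5, and 1 to 2 with 1 array left out; FOS was called in every setting that tested its probe set, and the probe sets added were those of ALAS1, CREM and KLF9. Without resistant replicate 1 or sensitive replicate 4 ALAS1 took the place of KLF10 at a count of 2, and without sensitive replicate 3 CREM did. Those with 1 array left out at 1 were resistant replicates 2, 3, 4 and 5 and sensitive replicates 1 and 2. Counts of all probe sets called ran from 691 to 860 with 1 array left out, against 931 with all arrays, and were 794 with the replicate block. Without sensitive replicates 4 and 5 the count was 788 for all probe sets and 1 for the other clock genes. With the filter the dim probe sets of CLOCK, CRY1, NR1D1 and NR1D2 were not tested. CRY1 and the second probe set of NR1D2 were above the control limit on no array, which only bounds their levels. The causes of these changes were not tested.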

Other observations

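Resistant replicate 4, the array with the low BHLHE40 signal, was also the lowest resistant array for all 3 probe sets of VEGFA and for DUSP1, genes singled out after their values were seen. Of the same list of output genes, KLF9, ALAS1 and both probe sets of TSC22D3 were lowest there too. The opposite held for EGR1 (1110.5), USP2 (1001.7), PPARA (1042.8), NAMPT (2090.9) and CREM in part of its probe sets, which were highest there among resistant arrays. VEGFA, which encodes an angiogenic factor, gave 6004, 6674, 17265, 3068 and 9427 on resistant arrays in its brightest probe set. DUSP1, a phosphatase gene induced by stress and growth factors, gave 954, 1179, 1946, 136 and 1333 on the same arrays. Its value of 136 on resistant replicate 4 lay under that array's control limit, as did the dimmest VEGFA probe set at 565.4. That array also had the highest control limit (739.8), the lowest share of probe sets above it (50.96%) and the highest GAPDH 3' to 5' ratio (0.968). The part of these array measures in the low signals was not tested.

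ALAS1, the first enzyme of haem synthesis and a clock output gene in mouse liver, averaged 4429 ± 1011 in resistant and 7326 ± 1071 in sensitive cells (log2 difference -0.73, limma adjusted p = 0.0531). KLF9, a glucocorticoid-induced factor, averaged 6874 ± 1890 in resistant and 3903 ± 1263 in sensitive cells (0.81, limma adjusted p = 0.105). CREM, whose products bind cyclic AMP elements, differed by 0.78, 0.34 and 0.41 on the log2 scale in 3 probe sets (limma adjusted p = 0.0803, 0.461 and 0.363). None of the 3 genes was called with all arrays and the settings of the report, and they too were singled out after their values were seen. Of the 18 alternatives, ALAS1 was called in 6, CREM in 2 and KLF9 in 1.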
